A study of Mus musculus with 2 samples.

Results

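The nuclei described here are the non-cycling interstitial progenitor nuclei of the mouse fetal testis, 1600 of the 7492 nuclei kept from 9833 barcodes, or 21.4%. They were chosen by their own RNA. Nuclei were kept with 2000 to 50000 UMIs (unique molecular identifiers, each a counted RNA molecule), under 10% mitochondrial UMIs and over 500 counts at chromatin peaks. Of these, 6691 held at most 1 UMI of the contractile genes Acta2, Myh11, Cnn1, Actg2 and Tagln, and they were ranked by the share of UMIs from the 7 genes Tacr3, Plcxd3, Adamts5, Ptpro, Col25a1, Tafa2 and Adam23. The first 2000 were taken, and the 1600 with the lowest share of the 7 cell cycle genes Mki67, Top2a, Aspm, Knl1, Neil3, Ckap2l and Cenpf are the members. The other 400 are called cycling progenitor nuclei. Non-cycling thus means a low share of these 7 cycle genes and not an absence of cell cycle RNA. The last nucleus taken held 2578 marker UMIs in every 1000000 (counts on this scale are abbreviated CPM) and the first left out 2576. The last member held 1577 CPM of cycle genes and the first excluded nucleus 1585, so that both limits cut through a continuous distribution.

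The nuclei came from whole E14.5 testes, frozen in liquid nitrogen, of embryos carrying Nr5a1-cre, a transgene that drives Cre in cells expressing Nr5a1, together with Rosa-tdTomato, a Cre-dependent red fluorescent reporter. There was no other genotype, treatment or age, and neither the labels nor the methods read here state how many embryos were pooled. RNA and accessible chromatin were read from the same nuclei with the 10x multiome assay, with 1 library for each. All 9833 barcodes of the matrix were also in the list of chromatin fragments. With 1 library per assay, no test between animals could be made. Nuclei are not replicates, and every 95% interval given covers counting error alone.

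The interstitium is the tissue between the testis cords. Its progenitors are mesenchymal cells marked by transcription factors such as TCF21 and NR2F2 and by the receptor PDGFRA, and they are known as a source of the steroid-making fetal Leydig cells. Progenitors receive hedgehog ligand from the Sertoli cells of the cords, which their receptor PTCH1 and the GLI transcription factors relay, while Notch signalling is known to hold them in the undifferentiated state. Leydig cells take up or make cholesterol and convert it to androgens under NR5A1, a nuclear receptor that switches on steroidogenic genes.

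The comparison classes were taken by the same kind of ranking on markers of other cell types, from kept nuclei outside the 2000, leaving out any nucleus shared between classes. They comprised 565 Leydig, 484 contractile, 505 germ, 457 Sertoli, 328 surface epithelium, 248 mesonephric mesenchyme, 53 endothelial, 45 immune and 30 pericyte nuclei. The members held 12176916 UMIs and 3109300 fragments at peaks, against 5887270 UMIs and 736307 fragments in the Leydig class. Levels below are UMIs summed over a class, in CPM, and accessibility is fragments at peaks on the same scale, abbreviated FPM. CPM is not scaled by gene length, so levels are compared between classes and not between genes.

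The markers behind the choice were spread unevenly over the members. Tafa2, encoding a secreted chemokine-like protein, had a UMI in 87.6% of members and Col25a1, a transmembrane collagen, in 85.4%. The disintegrin family member Adam23 had one in 71.7%, the aggrecanase gene Adamts5 in 69.3%, the neurokinin receptor gene Tacr3 in 61.7%, the receptor phosphatase gene Ptpro in 60.8% and Plcxd3, a phospholipase-like gene, in 47.5%. A median member had UMIs of 5 of the 7 genes, 181 members had all 7, and the lowest member had 1. The number of marker UMIs ranged from 6 to 302 with a median of 39. None of the 7 cycle genes had a UMI in 534 members, or 33.4%. The sharing of these genes was wider than the class name implies. The level of Tacr3 was 333 CPM in members, 229 in cycling progenitor, 206 in contractile and 30.6 in Leydig nuclei. That of Col25a1 was 1954, 1400, 721 and 60.1 CPM, and that of Adam23 489, 546, 208 and 73.7 CPM in the same order. All of these values follow from the choice of members and are given as a description.

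**Figure D1:**
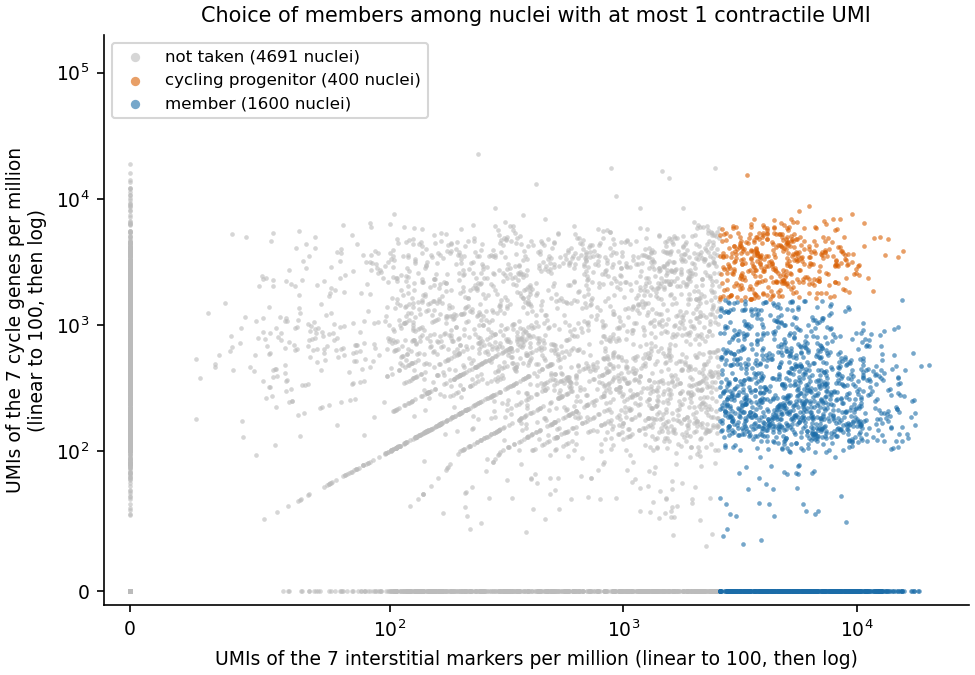
Marker share against cell cycle share of the 6691 nuclei with at most 1 contractile UMI, both in CPM on axes that are linear to 100 and logarithmic above, 1 point per nucleus. The limit on marker share falls at 2578 and that on cycle share at 1577, and nuclei lie densely on both sides of each.

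Interstitial markers that the rule did not use were high in the members, and most were as high in their neighbours. Nr2f2 (chr7:70351944-70366735, minus strand of GRCm38), encoding the nuclear receptor COUP-TFII, had 491 CPM in members (95% interval 478 to 503), 519 in cycling progenitor, 480 in contractile, 474 in mesonephric mesenchyme and 502 in pericyte nuclei, against 82.9 in Leydig and 28.9 in germ nuclei. These 5 classes of high level thus lay close together, and the pericyte interval, 407 to 613, spanned the other 4. Pdgfra, the receptor for PDGF-A, was highest in members at 581 CPM, followed by 548 in cycling progenitor, 452 in contractile, 394 in mesonephric mesenchyme and 76.9 in Leydig nuclei. Tcf21, a bHLH factor gene, was lower in members than in contractile nuclei, 49.6 against 70.1 CPM, with 8.66 in Leydig nuclei. Wnt5a, a non-canonical Wnt ligand, was highest in surface epithelium at 533 CPM, with 465 in contractile nuclei and 362 in members. Inhba (chr13:16011851-16031621, plus strand), the activin A subunit, set the members apart from contractile nuclei most clearly, at 322 CPM against 148, a ratio of 2.17 (2.0 to 2.37), and Leydig nuclei held 113 CPM.

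Shares of nuclei with a UMI were compared once every nucleus was thinned to 2000 UMIs. Nr2f2 had a UMI in 60.8% of members (58.3 to 63.2), 64.0% of contractile (59.6 to 68.3), 58.1% of mesonephric mesenchyme, 46.7% of pericyte (28.3 to 65.7), 11.5% of Leydig, 4.55% of germ and 17.8% (8.0 to 32.1) of the 45 immune nuclei, germ and immune cells being types that should lack it. Both shares are given as a background, since the deep germ nuclei are thinned the most. How far free RNA and doublets each contribute to this background was not tested. Inhba had one in 43.7% of members, 24.0% of contractile, 18.2% of Leydig, 3.96% of germ and 8.89% (2.48 to 21.2) of immune nuclei. Tcf21 reached 9.25% of members, 0.594% of germ and 0% of immune nuclei, where the exact interval reaches 7.87%. Wnt5a reached 47.8% of members, 8.12% of germ and 8.89% of immune nuclei. No nucleus was left out by the thinning, as each held at least 2000 UMIs. The median depth before thinning was 6211 UMIs in members, 14408 in germ and 5495 in immune nuclei.

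**Figure D2:**
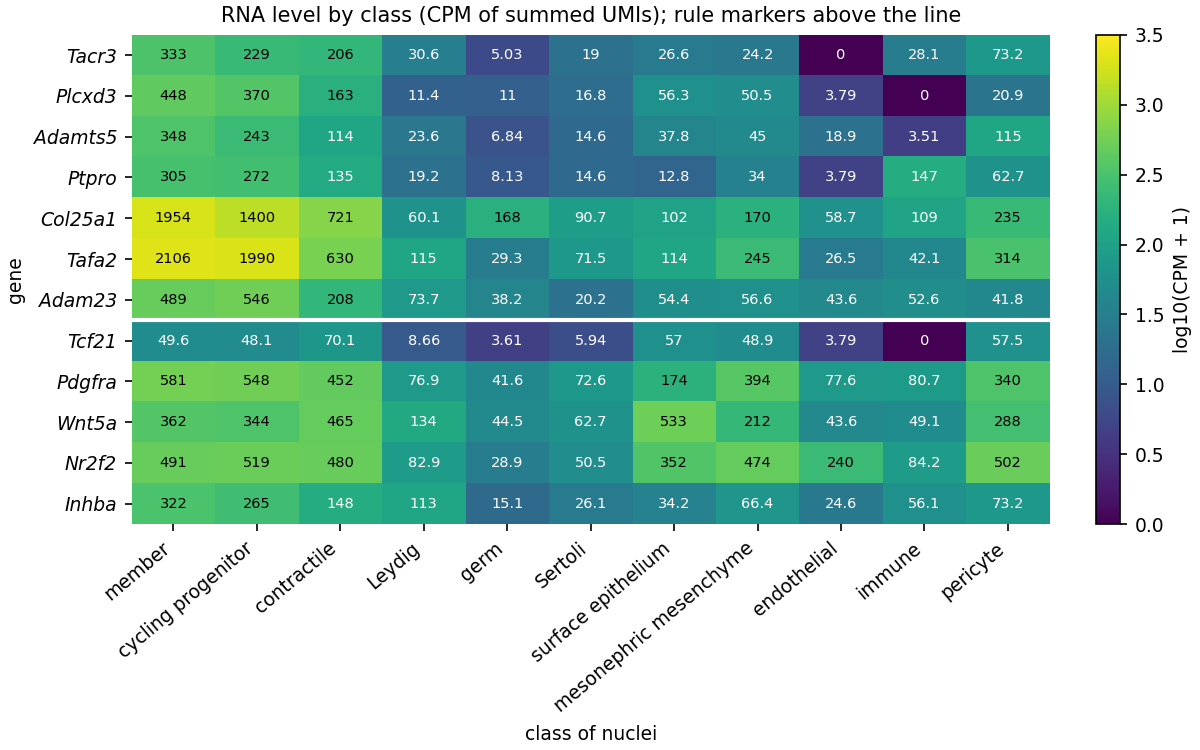
Level in CPM of the 7 markers of the rule and of 5 interstitial genes the rule did not use, in each class of nuclei, with the value in each cell and colour on a log10 scale of CPM + 1. Nr2f2 stands between 474 and 519 in members, cycling progenitor, contractile, mesonephric mesenchyme and pericyte nuclei, while Inhba falls from 322 in members to 148 in contractile nuclei.

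Markers of most other cell types were low in the members. Of lists of 8 genes each, the immune list summed to 7.14 CPM against 4004 in the immune class, with Cd163 at 0. The endothelial list summed to 81.7 against 6696 CPM, the pericyte list to 261 against 2086 and the contractile list to 161 against 931, with Cnn1 at 0. The contractile genes of that list include ones the rule limited. A list of supporting-like cells, which includes the cadherin gene Cdh1 and the adhesion gene Ncam1, summed to 609 CPM in members, 848 in cycling progenitor, 1188 in contractile and 1402 in mesonephric mesenchyme nuclei. The Leydig list summed to 605 CPM in members, 354 in cycling progenitor and 441 in contractile nuclei. It summed to 214 CPM in germ and 467 in immune nuclei, against 6617 in Leydig nuclei. Of the members, 565, or 35.3%, held 3 or more UMIs of Cyp17a1, Cyp11a1 and Hsd3b1, 3 genes of the steroid pathway. In thinned nuclei Cyp17a1 had a UMI in 38.1% of members, 35.7% of contractile and 33.5% of mesonephric mesenchyme nuclei. Among types that should lack the gene, it had one in 19.6% of germ and 44.4% (29.6 to 60) of the 45 immune nuclei. The members' share was thus above that of germ nuclei and within the interval of the immune nuclei. How far free RNA, doublets and expression each contribute to these UMIs was not tested.

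Chromatin gave a readout that the ranking had not used. Each kept nucleus was compared with the summed peak profile of every class, over 67028 peaks and leaving its own fragments out. Of the 1600 members, 1479 (92.4%, 95% interval 91.0 to 93.7) were closest to the member profile and another 23 to the cycling progenitor profile, 93.9% together. A further 57 were closest to contractile, 16 to Leydig, 11 to Sertoli, 8 to germ, 4 to mesonephric mesenchyme and 2 to surface epithelium nuclei. Among cycling progenitor nuclei, 360 of 400 (90%) were closest to the non-cycling profile and 20 (5%) to their own, against 1.44% of members closest to the cycling progenitor profile. The cycling progenitor class held 1111414 fragments at peaks, against 3109300 in members. How far this difference in size decides the closest profile was not tested, so no likeness of the 2 progenitor classes is read from these shares. Contractile nuclei were divided, with 253 of 484 (52.3%) closest to their own profile and 209 (43.2%) to that of the members. Leydig nuclei were more separate, at 510 of 565 (90.3%) and 43 (7.61%), and 16 of 505 germ nuclei (3.17%) came closest to the members. Pericyte nuclei were few, and 22 of 30 came closest to the members and 0 to their own profile, so that this readout did not separate pericytes from members. The member profile had the most fragments behind it, and the share of members assigned to progenitors moved with the smoothing used.

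The rank by marker share and the chromatin profile moved together without a step at the limit of the rule. In successive groups of 400 nuclei from the highest marker share downwards, 99.5, 98.0, 95.3, 91.3 and 86.5% had a progenitor profile within the 2000, and 81.3, 67.0 and 50.8% in the next 3 groups. The level of Nr2f2 fell from 533 CPM in the first group to 457 in the fifth and 399 in the sixth, and that of Inhba from 401 to 239 and 195. Over all kept nuclei 3386, or 45.2%, had one of the progenitor profiles, of which the members made up 44.4%. By marker share, the rule took the upper end of a ranking without a step. The progenitor profiles were also the best for 212 of 484 contractile and 22 of 30 pericyte nuclei, so the 3386 are not a count of progenitors.

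**Figure D3:**
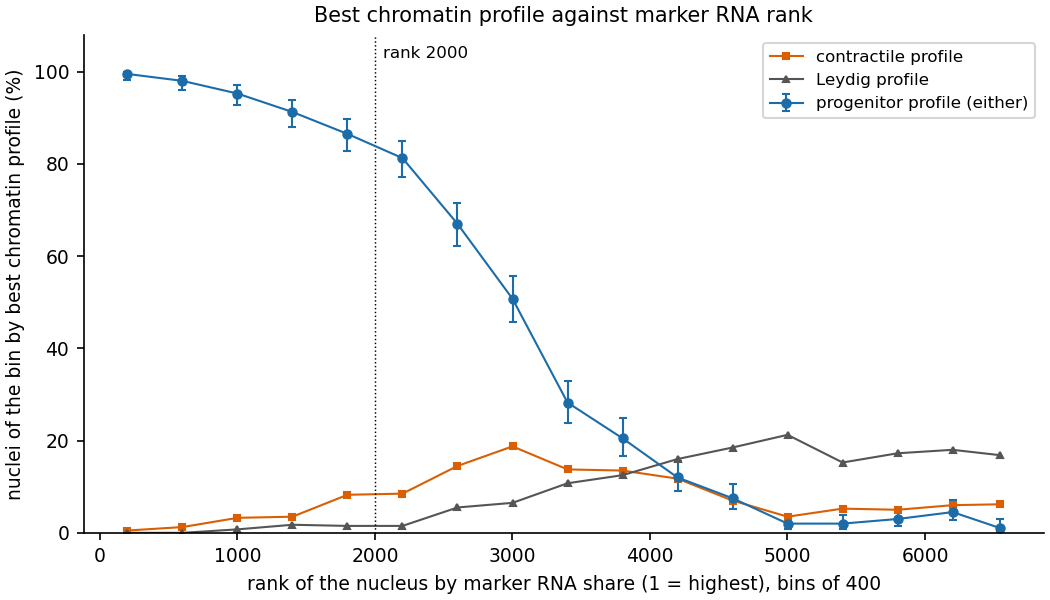
Percent of nuclei whose best chromatin profile was a progenitor, contractile or Leydig one, in successive groups of 400 nuclei ordered by marker share, with bars for 95% exact intervals of the progenitor percent and a dotted line at rank 2000. The progenitor percent falls from 99.5 in the first group to 86.5 in the last group left of the line and 81.3 in the first group right of it.

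Members that chromatin placed elsewhere differed in RNA for some of the profiles. The 16 with a Leydig profile had 256 CPM of Nr5a1 (188 to 341), the steroidogenic nuclear receptor gene, against 50.5 (46.4 to 54.9) in the 1479. Their level of Star, the cholesterol carrier of mitochondria, was 169 against 29.8 CPM, that of Cyp17a1 1243 against 266, and that of Nr2f2 235 against 500. Their median of 10074.5 UMIs was above the 6162 of the 1479. The 57 with a contractile profile had 124 CPM of Myocd, a coactivator of smooth muscle genes, against 17.9. They also had 276 CPM of Itga8, an integrin chain used as a marker of the mesonephric mesenchyme class, against 44.0. Their Nr2f2, at 520 CPM, lay within counting error of the 500 in the 1479. Of the 248 mesonephric mesenchyme nuclei, 55 were themselves closest to the contractile profile. The 8 with a germ profile, at a median of 16439.5 UMIs, had 290 CPM of the germ cell helicase gene Ddx4 against 18.5. The 11 with a Sertoli profile, at a median of 17923 UMIs, had 39.9 CPM (16.0 to 82.2) of Amh, the Sertoli cell hormone gene, against 35.7 (32.3 to 39.4) in the 1479, within counting error. Whether any of these were pairs of nuclei in a droplet was not tested.

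Compared with Leydig nuclei, the members were higher in most genes tested of the matrix, synaptic adhesion, axon guidance, Wnt and Notch lists. They were lower in every gene tested of the steroid and cholesterol lists. A gene was tested with 100 or more UMIs over both classes and called at a 2-fold difference, which is a threshold of size. Of 10899 genes, 1649 were called higher in members, 15.1% of those tested, and 1143 lower, 10.5%. The median log2 ratio over all genes was -0.00. Because members hold more UMIs, a gene high in members reaches 100 at a lower level than a gene high in Leydig nuclei. This bears on which list genes were tested as well, and nothing is read from the excess of 1649 over 1143. The comparison shares RNA with the choice of members, so the counts below describe these nuclei and are read beside those percentages.

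Matrix genes were mostly higher in members. Of 31 collagens, 25 were higher and 2 lower, with a median log2 ratio of 1.88, or 2.62 with the lowest class level subtracted. Col4a6, a basement membrane chain, had 97.4 CPM against 11.6 in Leydig nuclei, a ratio of 8.43 (6.60 to 10.9), and Col15a1 had 96.8 against 12.1. Col18a1, another basement membrane collagen, went the other way at 0.432. Of 31 matrix glycoproteins 23 were higher and 2 lower. Vcan, the proteoglycan versican, had 876 CPM against 99.7, a ratio of 8.79 (8.09 to 9.57), and Eln, encoding elastin, 78.5 against 10.0. Smoc1, a calcium-binding matrix protein gene, was lower at 91.8 against 800 CPM. Of 25 matrix proteases and inhibitors 16 were higher and 0 lower, led by Adamts17 with a ratio of 10.6.

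Signalling genes were described by pathway. In the hedgehog list, 4 of 11 were higher and 1 lower. The receptor and target gene Ptch1 had 988 CPM in members and 194 in Leydig nuclei, a ratio of 5.10 (4.80 to 5.42). The transcription factor gene Gli2 had 364 and 35.0 CPM and the target Gli1 68.1 and 9.17, whereas the co-receptor gene Cdon was lower in members, at 298 against 1114 CPM. In thinned nuclei Ptch1 had a UMI in 72.3% of members and in 51.7% of germ and 8.89% of immune nuclei, while Gli1 had one in 12.6% of members and 2.18% of germ nuclei.

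Of 8 Notch genes tested 5 were higher and 0 lower. The receptor genes Notch1 and Notch3 had ratios of 8.02 (5.31 to 12.7) and 6.87 (5.81 to 8.18), and the transcriptional effectors Heyl and Hes1 11.2 (7.24 to 18.2) and 5.35 (3.61 to 8.26). The ligand gene Jag1 was below the call in the other direction, at 149 CPM in members and 235 in Leydig nuclei. Of 13 PDGF and FGF genes 6 were higher and 2 lower. The receptor gene Pdgfrb had 158 CPM against 13.2 and the ligand gene Fgf10 93.7 against 10.5, while the receptor gene Fgfr2 had 278 against 603.

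Of 20 Wnt genes 15 were higher and 0 lower. The nuclear effector gene Lef1 had 94.3 CPM in members, 5.61 in Leydig and 31.0 in contractile nuclei. The receptors Ror1 and Ror2 had ratios over Leydig nuclei of 9.85 and 7.35, and the secreted antagonist gene Dkk2 7.68. Retinoic acid and TGF-beta family genes had no such majority. Of 10 retinoic acid genes 4 were higher and 3 lower. The receptor gene Rarb had 93.6 CPM against 4.93, a ratio of 19 (13.2 to 28.5), while the degrading enzyme gene Cyp26b1 and the synthetic enzyme gene Aldh1a1 had ratios of 0.182 and 0.158. Of 28 activin, BMP and TGF-beta genes 8 were higher and 6 lower. The ligand gene Bmp5 had 102 CPM against 29.4, and Bmp6 had 30.1 against 342.

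Among 31 interstitial transcription factors 16 were higher and 2 lower. The LIM homeobox gene Lhx9 had 219 CPM in members, 27.3 in Leydig and 236 in contractile nuclei, and the homeobox gene Pknox2 had 797, 96.5 and 1138 CPM in the same order. Ebf1, an early B-cell factor gene, had 558, 73.9 and 243. Gata6, encoding a zinc finger factor used in steroidogenic cells, was lower in members than in Leydig nuclei, at 40.2 against 285 CPM. Ebf1 thus stood above both neighbours, while Lhx9 and Pknox2 were as high or higher in contractile nuclei.

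Genes best known from neurons were prominent. Of 27 synaptic adhesion and neuropeptide genes 19 were higher and 4 lower. Their median log2 ratio of 2.03 was the highest of the 17 lists. With the lowest class level subtracted, the S phase and the G2 and M phase medians were higher. Nlgn1, a neuroligin, had 1377 CPM against 99.4, Cntn6, a contactin, 187 against 10.4, and Lrrtm4, a leucine-rich synaptic protein gene, 181 against 11.2. Opcml and Ntm, cell adhesion genes of the IgLON family, were lower at ratios of 0.103 and 0.143. Of 35 axon guidance genes 25 were higher and 4 lower. The secreted guidance cue gene Slit2 had 6356 CPM against 677 and the ephrin gene Efna5 2928 against 235, while Robo1, a Slit receptor gene, was lower at 828 against 1996 CPM.

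All 14 genes tested of the steroid list and all 19 cholesterol genes tested were lower in members, with median log2 ratios of -3.26 and -2.79. The steroid list also holds genes that make no steroid, among them the receptor genes Lhcgr and Mc2r and the hormone gene Insl3. The steroid median was -4.25 without suspected doublets, meaning nuclei with 3 or more UMIs of another class's markers. For members those markers include Cyp17a1, Cyp11a1 and Hsd3b1, so that leaving such nuclei out lowers the steroid ratios by its own construction. The luteinizing hormone receptor gene Lhcgr had 79.5 CPM against 1172, a ratio of 0.0678 (0.0633 to 0.0725), and the peptide hormone gene Insl3 29.7 against 101. Lss, the enzyme that closes the sterol rings, had 27.0 against 305 CPM, and Cyp51, a sterol demethylase, 122 against 520. The Leydig nuclei were chosen on 3 steroid pathway genes, so the steroid list is partly fixed by that choice.

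Some single genes outside the lists had ratios over Leydig nuclei of 18.1 or more. Tll1 (chr8:64014931-64206271, minus strand), a tolloid-like metalloprotease gene, had 230 CPM in members, 9.85 in Leydig and 38.3 in contractile nuclei. Tmeff2, a transmembrane protein gene, had 219, 9.17 and 104 CPM, and Csmd3, a large membrane protein gene, 228, 12.6 and 51.0 CPM. Among genes lower in members, Oca2, a melanosomal transport gene, had 18.3 CPM against 433 in Leydig nuclei and Dact2, a Dishevelled-binding protein gene, 3.37 against 76.6. The other leading transcripts on that side were the non-coding Gm16168, Lncbate1, 2210408F21Rik and 4933400C23Rik.

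**Figure D4:**
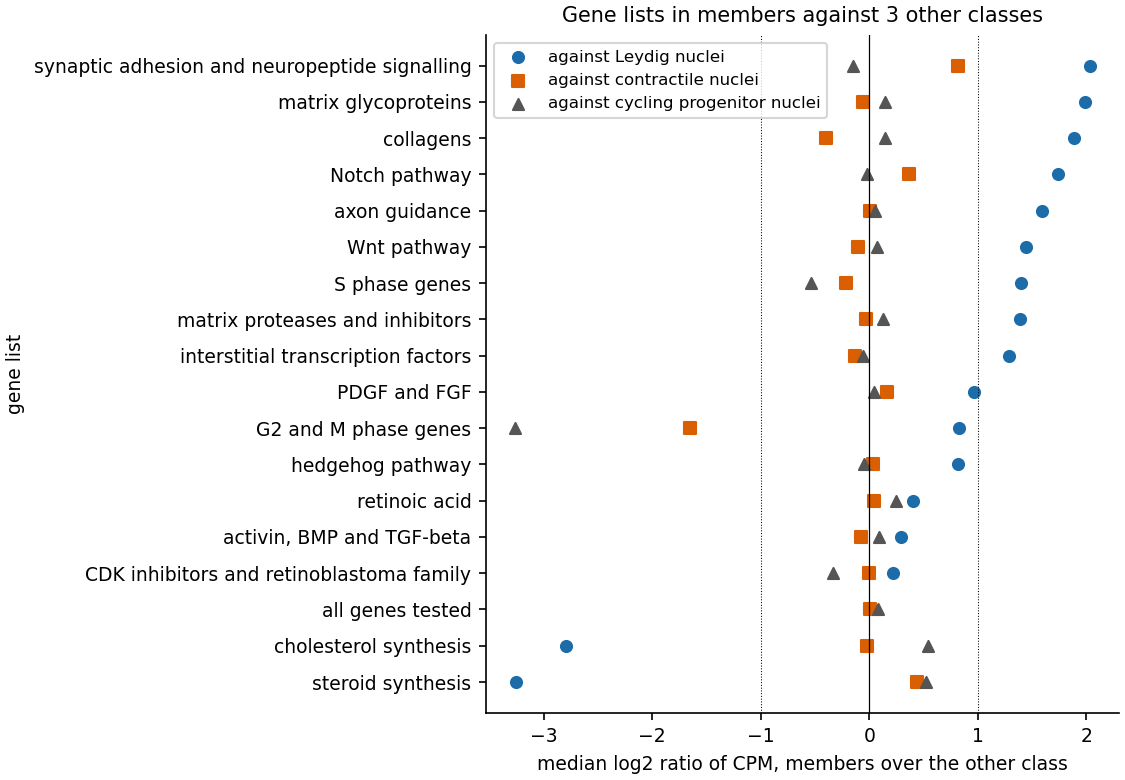
Median log2 ratio of members over cycling progenitor, Leydig and contractile nuclei for each of the 17 gene lists. Against Leydig nuclei the medians run from -3.26 for steroid synthesis to 2.03 for synaptic adhesion, and against contractile nuclei most lie near 0.

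Contractile nuclei were far closer to the members. Of 10576 genes, 195 (1.84%) were higher in members and 312 (2.95%) lower. Members also hold more UMIs than contractile nuclei, so the minimum again admits genes high in members at a lower level. Among the lists, synaptic adhesion had 8 of 26 genes higher and 0 lower, with a median log2 ratio of 0.82. Collagens ran the other way, with 3 of 33 higher and 7 lower. Col24a1, a fibrillar collagen, had 23.9 CPM in members, 82.7 in contractile and 3.06 in Leydig nuclei. Of 11 hedgehog genes 1 was higher and 1 lower, and of 8 Notch genes 0 were called, although 5 of these had differed from Leydig nuclei. The axon guidance list was divided, with 5 of 34 higher and 6 lower.

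Prlr (chr15:10177238-10349180, plus strand), the prolactin receptor gene, was graded over the classes, with 666 CPM in members, 348 in cycling progenitor, 183 in contractile and 1681 in Leydig nuclei. The ratio of members to contractile nuclei was 3.63 (3.37 to 3.91), and in thinned nuclei 49.8% of members, 17.4% of contractile, 15.6% (6.49 to 29.5) of immune and 4.16% of germ nuclei had a UMI. In the 1479 members with the member profile the level was 681 CPM. Without the 80 members highest in Leydig markers it was 607 CPM. The remaining members still held 200 CPM of Cyp17a1, and the part of Leydig RNA in the Prlr level was not tested. Tll1 and Csmd3 also had high ratios over contractile nuclei, at 6.0 (5.12 to 7.07) and 4.47 (3.89 to 5.15), as did Tox, an HMG-box gene, at 3.45 (3.03 to 3.94). Genes lower in members were led by Myocd, at 21.4 against 296 CPM, Nexn, an actin filament protein gene, at a ratio of 0.135, and Cdh3, encoding P-cadherin, at 14.4 against 102. The contractile class was itself ranked on smooth muscle genes, and it had no limit on cycle genes, of which all 22 G2 and M phase genes tested were lower in members.

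Against the cycling progenitor nuclei, 147 of 10524 genes (1.4%) were higher in members and 347 (3.3%) lower. Among 6999 genes tested by 20 CPM in the higher class instead, 38 were higher and 302 lower. Subtracting the lowest class level from every gene turned the split to 1761 higher and 968 lower, the opposite direction. All 24 G2 and M phase genes of the list were lower, with a median log2 ratio of -3.27, and 6 of 24 S phase genes, with a median of -0.53. Pif1, a DNA helicase gene, had 1.48 CPM against 52.0 and Cdc25c, a mitotic phosphatase gene, 2.63 against 75.4. Being chosen for low cycle genes, the members had to differ here. They were not without S phase RNA, however. Over the 25 S phase genes they held 1437 CPM (1416 to 1458), against 2495 in cycling progenitor, 1780 in contractile and 560 in Leydig nuclei, and 20 of 23 S phase genes tested were higher in members than in Leydig nuclei. Of 19 G2 and M phase genes tested against Leydig nuclei 8 were higher in members and 0 lower, with 426 CPM over the list against 226. The members thus held more RNA of both cycle lists than Leydig nuclei. The 7 cycle genes of the rule act mostly in G2 and mitosis, and the rule set no limit on S phase genes. Outside the cycle lists, at most 1 gene in each of the matrix, adhesion, guidance and signalling lists was called in either direction.

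The genes most above cycling progenitor nuclei were ones of Leydig nuclei. Fam129a, a stress-responsive gene, had 99.9 CPM in members, 29.3 in cycling progenitor and 2119 in Leydig nuclei. Kcnip4, a potassium channel accessory subunit gene, had 265, 86.2 and 5419 CPM, and Nckap5 200, 63.3 and 4504 CPM in the same order. Of the 147 genes, 48 (32.7%) were at least 2-fold higher in Leydig nuclei than in members, against 8.17% of all genes tested. Leaving out the 80 members highest in Leydig markers, which hold 8.29% of the members' UMIs, lowers the ratios of Leydig genes by its own construction. In an alternative chosen after seeing the data, the 5% of nuclei highest in these markers were left out of both classes, 80 members and 20 cycling progenitor nuclei. It takes out the same 80 members by the same markers, so it lowers the members' level of Leydig genes in the same way. Kcnip4 was at 47.1 CPM in members and 48.6 in cycling progenitor nuclei under it. The ratio of Fam129a then went from 3.41 to 1.89, that of Nckap5 from 3.17 to 2.01, that of Kcnip4 from 3.07 to 0.969 and that of Pde10a, a phosphodiesterase gene, from 2.60 to 2.24. Of the 147 genes, 94 were still called. Of the 13 steroid genes tested 3 were called higher than in cycling progenitor nuclei and 0 lower, with 1 of 19 cholesterol genes higher, and Nr5a1 had a ratio of 1.27 with all nuclei and 1.0 without the 5% of both classes.

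Few genes stood above every other class. Of 11499 genes, 23 (0.2%) were at least 2-fold above the highest of the 9 other classes, the cycling progenitor class not counted. They were led by Acss3, a mitochondrial acyl-CoA synthetase gene, with 106 CPM against 37.8 in contractile nuclei, a ratio of 2.80 (2.38 to 3.32). Pld5, a phospholipase D family gene, had 223 against 83.7, Stxbp5l, a syntaxin-binding protein gene, 313 against 126 and the X-linked gene Nexmif 1015 against 427. The non-coding 5033421B08Rik and 2600014E21Rik had ratios of 2.79 and 2.68. For each of the 6 the next class was the contractile one, and cycling progenitor nuclei held 86.6 CPM of Acss3, 192 of Pld5 and 912 of Nexmif.

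Members also varied among themselves. In nuclei thinned to 2000 UMIs the ratio of variance to mean, which is 1 for counting error alone, had a median of 1.14 over 2189 genes. It was 10.6 for the mitochondrial gene mt-Co3 and 10.3 for Nrxn3, a neurexin. Also among the most variable were the mitochondrial genes mt-Co2 (8.28) and mt-Atp6 (8.03) and the transcript Gm42418 (8.06). Nrxn3 had no UMI in 582 thinned members and as many as 48 in others. Kcnd2, a potassium channel gene, had a ratio of 8.11 and Pcdh9, a protocadherin gene, 6.76. Kcnip4 had 9.17, with a UMI in 7.06% of members and up to 22 UMIs in a thinned member. Of the marker genes Tafa2 had 5.37, Col25a1 4.78 and Plcxd3 4.10.

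The chromatin at these loci was examined after their values were seen. Accessibility over the Nrxn3 gene and 10 kb around it was 296 FPM (265 to 331) in the 582 members without a UMI and 450 (404 to 499) in the 400 with the most. At Pcdh9 it was 133 (114 to 155) in the 707 without a UMI and 186 (158 to 218) in the 400 with the most. Of these 400, 32 had a contractile and 7 a Leydig profile, against 14 and 3 of the 707, and Kcnip4 was at 421 against 129 CPM. The 57 members with a contractile profile had 3089 CPM of Pcdh9, against 1171 in the 1479. For Nrxn3 the contractile profiles were 22 of the 400 and 14 of the 582. At Kcnd2 the values were 59.8 and 66.9, with intervals that overlapped. At Kcnip4 they were 87.3 (76.8 to 98.8) in the 1487 members without a UMI and 118 (78.1 to 170) in the 113 with one, which also overlapped. The 113 members with a thinned UMI of Kcnip4 had 187 CPM of Nr5a1, against 36.7 in the other 1487, and 9 of them had a Leydig profile, against 7 of the 1487. Their Nr2f2 was 402 against 501 CPM. The part of these profiles in the differences at Nrxn3 and Pcdh9 was not tested.

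RNA and accessibility at named loci differed in size more than in direction. Over the 150 named genes with 50 or more fragments at the locus, 121 lay on the same side of 1 in both ratios of members to Leydig nuclei. Of 81 genes with an RNA ratio of 2 or more, 70 had more fragments in members, 42 with an interval above 1, and the median chromatin ratio was 1.49. Of 42 with an RNA ratio of 0.5 or less, 37 had fewer fragments, 27 with an interval below 1, and the median was 0.653. Most of the 150 genes were named for their RNA ratios, and 6 are markers of the rule. No share over all genes stands beside these counts, which describe the named genes alone. Heyl, Eln and Ror2 had the highest chromatin ratios at 2.81, 2.73 and 2.71. Insl3, Oca2, Aldh1a1 and Star had the lowest at 0.277, 0.308, 0.330 and 0.332.

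The marker genes were uneven in this respect. Of the 6 with 50 or more fragments over both classes, Adamts5 had a locus ratio of 1.96 (0.894 to 5.10) over Leydig nuclei, on 7 Leydig fragments. Ptpro had 1.78 (1.40 to 2.30) and Col25a1 1.71 (1.38 to 2.14), beside an RNA ratio of 32.5. Tafa2 had 1.15 (0.869 to 1.53), Adam23 0.978 (0.708 to 1.37) and Tacr3 0.902 (0.552 to 1.54), with intervals that include 1, beside RNA ratios of 18.3, 6.64 and 10.9. Among the interstitial genes Tcf21 had 2.54 (1.64 to 4.13), Inhba 2.13 (1.45 to 3.25), Pdgfra 2.07 (1.48 to 2.96) and Nr2f2 1.47 (1.17 to 1.87), and Wnt5a 0.928. At Inhba the locus was also more open than in contractile nuclei, at 1.78 (1.32 to 2.45), whereas Nr2f2 did not differ from them beyond counting error, at 1.03 (0.866 to 1.22). The Prlr locus had a ratio of 2.14 (1.38 to 3.45) over contractile and 0.687 (0.495 to 0.967) over Leydig nuclei, the same order as its RNA. The Nr5a1 promoter had 0.384 (0.299 to 0.496) over Leydig nuclei.

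**Figure D5:**
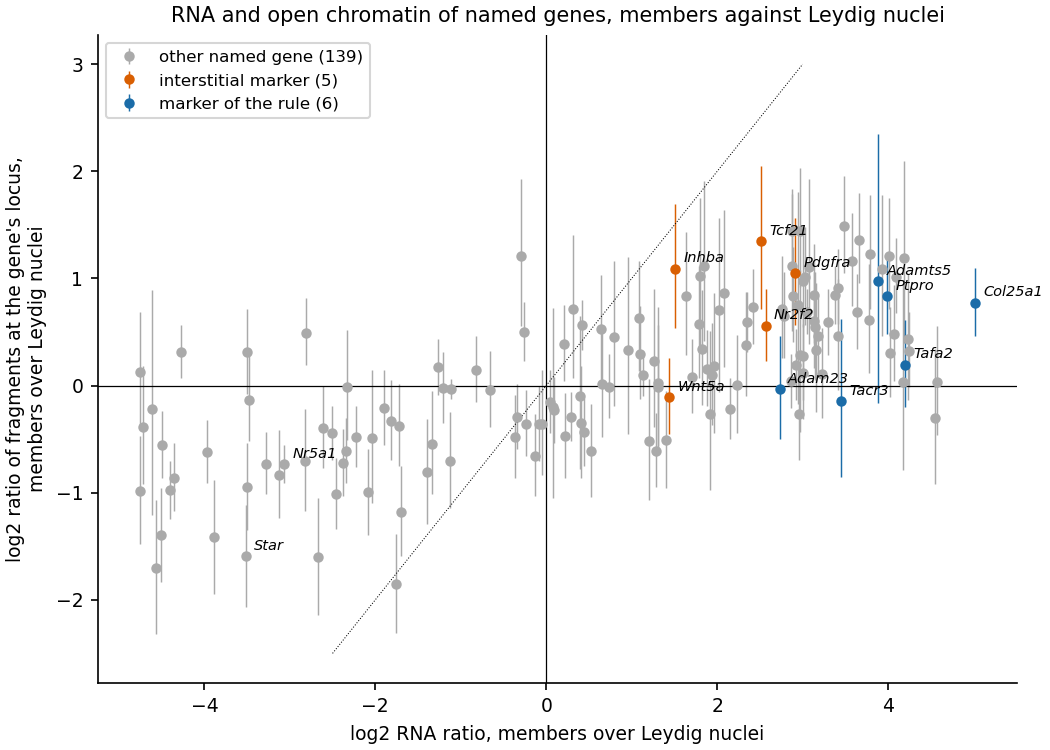
Ratio of members to Leydig nuclei in RNA against the ratio in chromatin fragments at the gene and 10 kb around it, both as log2 ratios, for 150 named genes, with bars for 95% intervals of the chromatin ratio and a dotted line where both are equal. Before the log, the chromatin ratios run from 0.277 for Insl3 to 2.81 for Heyl, and 121 of the genes lie on the same side of 1 in both.

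The promoter of Tcf21 is shown because its accessibility differed, with a promoter ratio of 2.37 (1.15 to 5.67) over Leydig nuclei, and that of Tacr3 because it holds a cluster of the letters searched. Each runs 5′ to 3′ on the gene's strand, from 250 bases before to 50 after the RefSeq start, in build GRCm38 (mm10). Capitals mark matches on either strand to any of the letters searched. These were AGATAA for GATA factors and CCCNNGGG for EBF factors. The E-box bound by TCF21 was searched as CAGCTG. MEIS and PKNOX factors were searched as TGACAG and homeodomain factors as the palindrome TAATTA. For TEAD factors the letters were GGAATG and for RUNX factors TGTGGT. AP-1 was searched as TGANTCA. GLI factors were searched as TGGGTGGTC. The nuclear receptor core was AGGTCA, which is contained in CAAGGTCA, the letters of NR5A1. Of 13 promoters looked for 10 were in the RefSeq table.

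Tcf21 promoter, chr10:22820094-22820393, minus strand: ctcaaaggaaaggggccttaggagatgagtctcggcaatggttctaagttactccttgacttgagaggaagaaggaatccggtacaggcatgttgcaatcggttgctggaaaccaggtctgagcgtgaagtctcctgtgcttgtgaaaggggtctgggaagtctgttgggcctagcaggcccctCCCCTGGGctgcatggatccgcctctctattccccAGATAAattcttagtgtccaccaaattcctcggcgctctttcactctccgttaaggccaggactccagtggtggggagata
Tacr3 promoter, chr3:134828757-134829056, plus strand: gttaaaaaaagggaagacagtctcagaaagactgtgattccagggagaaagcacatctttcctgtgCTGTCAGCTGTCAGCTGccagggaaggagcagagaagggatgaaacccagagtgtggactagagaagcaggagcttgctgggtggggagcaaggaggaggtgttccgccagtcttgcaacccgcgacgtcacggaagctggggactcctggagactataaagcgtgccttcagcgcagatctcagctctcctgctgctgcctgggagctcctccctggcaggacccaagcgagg

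The Tcf21 window holds the EBF and GATA letters. The Tacr3 window holds 2 copies of the E-box and 2 of the MEIS and PKNOX letters, which overlap. Over 32851 promoters of the same length, 16.3% hold CAGCTG, 11.2% AGATAA, 19.2% TGACAG and 13.7% CCCNNGGG. A match describes the letters and does not show binding.

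Peaks were tested with 50 or more fragments over both classes. Of 19167 peaks tested against Leydig nuclei, 3290 (17.2%) were at least 2-fold higher in members and 531 (2.77%) lower. Because members hold more fragments, a peak high in members reaches 50 at a lower level than a peak high in Leydig nuclei, and nothing is read from the excess of higher peaks. Among 15730 peaks tested by 20 FPM in the higher class instead, 1766 were higher and 1754 lower, so that the excess was gone. Of these, 1437 of the higher and 1437 of the lower were distal, meaning farther than 1 kb from a GENCODE 5′ end. Of the 3290, 2895 had an interval above 1. Over all 19167 peaks, 3157 intervals lay above 1 and 1773 below. Against contractile nuclei 646 of 21566 peaks (3%) were higher and 255 (1.18%) lower, with 959 intervals above 1 and 878 below. By 20 FPM these were 216 higher and 306 lower, the opposite order. Against cycling progenitor nuclei 242 of 21809 (1.11%) were higher and 83 (0.381%) lower, whereas 488 intervals lay above 1 and 872 below. By 20 FPM these were 65 higher and 77 lower.

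Windows of 300 bases at the centre of 4 such peaks are shown, 3 of them with 0 fragments in Leydig nuclei and 1 lower than in contractile nuclei, on the plus strand of GRCm38, with capitals as above. The chr12 peak, at 64343505 to 64344391 and intergenic, had 71 fragments in members, at least 5.60-fold higher than a floor of 3 Leydig fragments. The chr15 peak, at 27779515 to 27780386 in an intron of Trio, a guanine exchange factor gene, had 77, at least 6.08-fold higher. The chr17 peak, at 73066191 to 73067116 and nearest Lclat1, had 72, at least 5.68-fold higher. The chr2 peak, at 20291111 to 20291997 in an intron of Etl4, was lower than in contractile nuclei at 0.164 (0.0901 to 0.290).

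Intergenic, chr12:64343799-64344098: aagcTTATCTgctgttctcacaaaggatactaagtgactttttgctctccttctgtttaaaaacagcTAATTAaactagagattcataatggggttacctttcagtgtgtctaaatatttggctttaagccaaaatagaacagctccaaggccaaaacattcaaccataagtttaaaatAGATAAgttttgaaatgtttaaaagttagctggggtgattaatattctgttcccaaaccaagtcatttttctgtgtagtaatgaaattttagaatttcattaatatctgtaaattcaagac
Trio intron, chr15:27779801-27780100: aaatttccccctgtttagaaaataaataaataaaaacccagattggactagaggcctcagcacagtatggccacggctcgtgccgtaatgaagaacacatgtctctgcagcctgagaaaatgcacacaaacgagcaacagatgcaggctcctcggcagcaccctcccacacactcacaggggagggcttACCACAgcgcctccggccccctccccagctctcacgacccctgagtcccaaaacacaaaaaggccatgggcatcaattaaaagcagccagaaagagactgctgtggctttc
Near Lclat1, chr17:73066504-73066803: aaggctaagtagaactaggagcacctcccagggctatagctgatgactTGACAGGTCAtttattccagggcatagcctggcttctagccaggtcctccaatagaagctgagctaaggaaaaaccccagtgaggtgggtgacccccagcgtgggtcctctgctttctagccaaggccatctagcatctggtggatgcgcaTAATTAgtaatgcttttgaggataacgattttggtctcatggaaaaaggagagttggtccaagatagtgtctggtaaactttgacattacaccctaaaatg
Etl4 intron, chr2:20291405-20291704: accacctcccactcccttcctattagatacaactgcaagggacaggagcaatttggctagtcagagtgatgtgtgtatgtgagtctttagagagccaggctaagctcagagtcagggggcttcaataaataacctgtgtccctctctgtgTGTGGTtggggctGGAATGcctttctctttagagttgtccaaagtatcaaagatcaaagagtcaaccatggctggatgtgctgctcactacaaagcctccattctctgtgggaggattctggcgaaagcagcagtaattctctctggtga

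The chr12 window holds TAATTA and AGATAA letters, and the Trio window RUNX letters on the minus strand. The chr17 window holds TAATTA, and the TGACAG and AGGTCA letters overlapping each other. The Etl4 window holds RUNX and TEAD letters. All 3 peaks with 0 fragments in Leydig nuclei were also found in cycling progenitor and contractile nuclei.

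Among distal peaks 4 of the 12 sets of letters searched had intervals against Leydig nuclei that did not overlap between peaks higher and peaks lower in members. CAGCTG was in 49.4% of the 2775 distal peaks higher in members (47.5 to 51.3), in 39.6% of all 7920 distal peaks tested and in 38.9% of the 352 lower. TAATTA was in 11.9%, 6.64% and 3.69% in the same order. CAAGGTCA was in 5.51% of those higher, 6.35% of those tested and 11.9% (8.74 to 15.8) of those lower, and AGGTCA, which lies within CAAGGTCA, in 25.5%, 23.1% and 35.5%. The other 8 sets had intervals that overlapped, among them AGATAA in 20% of those higher and 19% of those lower and TGACAG in 20.7% and 17.9%. The median GC content was 50.7, 54.3 and 54%, and its part in these shares was not tested. By 20 FPM in the higher class, CAGCTG was in 52.5% of peaks higher and 37.2% of peaks lower, TAATTA in 10.7% and 4.31%, CAAGGTCA in 5.22% and 15.9% and AGGTCA in 25.8% and 41.5%, the same directions for these 4. A further 2 sets had intervals that no longer overlapped, GGAATG in 24.1% (21.9 to 26.4) of peaks higher and 17.7% (15.7 to 19.7) of peaks lower, and the GLI letters in 1.67% (1.07 to 2.47) and 0.348% (0.113 to 0.810). By that minimum AGATAA was in 18.7% and 22.6% and TGACAG in 20.7% and 21.9%, the opposite order, with intervals that overlapped.

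Against contractile nuclei 4 of the 12 sets did not overlap, CAAGGTCA, AGGTCA and AGATAA being more frequent in peaks higher in members and GGAATG in peaks lower. CAAGGTCA was in 12.3% (9.66 to 15.3) of the 545 distal peaks higher in members, in 5.76% of the 9923 tested and in 4.59% (2.22 to 8.27) of the 218 lower. AGATAA was in 25.5%, 15.5% and 16.1%. GGAATG, the TEAD letters, was in 18.0%, 19.8% and 28.9% (23.0 to 35.4), and TGACAG in 20.4%, 18.6% and 28.4%. The median GC content was 49.3% both in peaks higher and in peaks lower. By 20 FPM in the higher class, with 170 peaks higher and 267 lower, CAAGGTCA was in 10% (5.93 to 15.5) and 4.12% (2.07 to 7.25), intervals that overlap, AGATAA in 27.1% and 12.7%, and GGAATG in 18.8% (13.2 to 25.5) and 28.5% (23.1 to 34.3), which also overlap. AGGTCA stayed apart, at 38.8% and 20.2%, and CAGCTG came apart, at 50.6% (42.8 to 58.3) and 33.3% (27.7 to 39.3). With members of a progenitor profile alone CAAGGTCA was in 11% of 555 peaks higher, and without the 80 members highest in Leydig markers in 11.6% of 501. Of the 67 peaks with these letters, 20 (29.9%) were more open in Leydig nuclei than in members, against 70 (14.6%) of the 478 without, and the medians in members, contractile and Leydig nuclei were 16.4, 7.24 and 12.2 FPM.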

How the data were processed

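The authors processed RNA and ATAC reads with Cell Ranger ARC 2.0.1 on mm10 and deposited raw counts: UMIs per gene and cuts per peak for each barcode, and a list of fragments. They were used here with no doublet caller and no correction for free RNA. UMIs were summed per class and given as CPM. Fragments were counted once per peak. Genes needed 100 UMIs and peaks 50 fragments over both classes, and a 2-fold difference was called, with the rule's own genes left out. Intervals are exact Poisson, conditional binomial or Clopper-Pearson at 95%. Chromatin profiles used a multinomial likelihood with 100000 pseudo-counts. Genes were placed with GENCODE annotation, matching 99.8% of 32285 gene IDs. The named genes are the 6 with the largest ratios each way at 50 CPM or more, and the ends of each of the 17 lists at 20 CPM or more. Nrxn3, Kcnd2, Pcdh9 and Kcnip4 loci, the Prlr gradient, the printed promoters and windows, the minimum of 20 FPM or CPM and the subsets without nuclei high in Leydig markers were chosen after values were seen. The members and the lists were chosen with earlier results of these data known. Scripts used python 3.11.15, numpy 2.4.6, scipy 1.17.1, pandas 2.3.3 and samtools 1.23.1, and the gene calls and best profiles were tested on simulated data. The simulated profiles covered members, Leydig, contractile and germ nuclei alone, in classes of equal size and with fewer pseudo-counts. Peak calls and shares of letters were not simulated. Alternatives were thinning to 2000 UMIs, subtraction of the lowest class level, other minimums, other limits on nuclei and other pseudo-counts. Some items are not reported here.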

Additional observations from a re-analysis of the deposited data

How the results depend on the processing

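No paired analysis was possible because each assay had 1 library and the results come from no test. Of 452 values recomputed, 255 were list medians, of which 18 moved by 0.58 or more on the log2 scale. A change of sign was counted only for lists with a reported median of at least 1 in size, and 0 were found there. For lists with a smaller median it was not counted. With the lowest class level subtracted, medians moved for the collagens (1.88 to 2.62), matrix glycoproteins (1.99 to 2.59), axon guidance (1.59 to 2.18), hedgehog (0.82 to 1.58), Notch (1.73 to 2.53), S phase (1.39 to 3.45), G2 and M phase (0.83 to 3.34), CDK inhibitor (0.22 to 1.14), PDGF and FGF (0.96 to 1.89) and steroid (-3.26 to -3.84) lists. Under other settings the PDGF and FGF median moved to between 1.63 and 2.98, and the Notch median to 0.79 at 20 UMIs. The steroid median moved to -3.94 without the 80 members highest in Leydig markers and to -4.25 without suspected doublets. Suspected doublets were nuclei with 3 or more UMIs of another class's markers, 691 of the members. Both of these settings take members out by steroid pathway genes, wholly or in part, which lowers the steroid median by construction. Called genes against cycling progenitor, Leydig and contractile nuclei numbered 494, 2792 and 507. They were 302, 1628 and 303 in thinned nuclei, 1269, 4483 and 1218 at a minimum of 20 UMIs, and 267, 1798 and 297 at 300 UMIs, where other minimums test other genes. Subtracting the lowest class level from every gene gave 2729, 5829 and 1982, and turned the split against cycling progenitor nuclei from 147 higher and 347 lower to 1761 and 968. Called peaks numbered 325, 3821 and 901. They were 2336, 11756 and 4481 when cuts were counted as deposited, 4768, 17956 and 7900 at a minimum of 20 fragments, and 20, 673 and 80 at 100. At a minimum of 20 FPM they were 142 against cycling progenitor and 522 against contractile nuclei, and without suspected doublets 1224 against Leydig and 311 against contractile nuclei, with 909 members left. The share of members with a progenitor profile, 93.9%, was 96.1% with 10000 and 79.1% with 1000000 pseudo-counts, 92.1% with peak counts limited to 1 and 98.2% without suspected doublets. The cause was not tested where the genes, peaks or nuclei were the same. Shares of members with a UMI were higher at full depth: 27.6% for Tcf21, 91.9% for Pdgfra, 82.1% for Wnt5a, 93.1% for Nr2f2 and 78.1% for Inhba. With 1 library per assay, differences between animals could not be measured.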
